A study of Mus musculus with 4 samples.

Results

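C1q cells were the sorted tumor-infiltrating cells in which the 3 genes of the complement component C1q were found together at 5 or more UMIs. A UMI (unique molecular identifier) stands for 1 captured RNA molecule. The cells also had at least 600 detected genes, under 30% of UMIs from mitochondrial genes and fewer than 2 UMIs of Siglech, a gene of plasmacytoid dendritic cells. Of 20170 cells that passed the gene and mitochondrial limits, 194 were C1q cells. They were 122 of 10224 cells from WT mice and 72 of 9946 cells from mice whose T cells lacked VISTA. The members were chosen by their C1q, Siglech, Cd3e and contig values, which are given here as a description. The name states only how the cells were selected, because most of them did not look like macrophages alone: 95.1% of WT and 94.4% of VISTA-KO C1q cells also carried RNA of Cd3e, a subunit of the T cell receptor complex.

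C1q is the recognition molecule at the start of the classical complement pathway. It is built from A, B and C chains, which are encoded by C1qa, C1qb and C1qc, and it binds antibody complexes and dying cells. Most complement proteins come from the liver, but C1q is made mainly by tissue macrophages and some dendritic cells, and its 3 genes are textbook markers of macrophages in tumors. T cells are not known as a source of it. In GRCm38 the genes lie side by side on chromosome 4, with C1qb at chr4:136880126-136886200, C1qc at chr4:136889801-136892936 and C1qa at chr4:136895916-136898844 (RefSeq gene limits).

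The mice were Vsir fl/fl animals on the C57BL/6 background, with CD4-Cre (VISTA-KO) or without it (WT littermates). Vsir encodes VISTA, an inhibitory receptor found on T cells and myeloid cells. The Cd4 promoter drives Cre in developing T cells of the CD4 and the CD8 lineage, so the macrophages of these mice are not the target of the deletion. All mice carried B16 melanoma and were given a vaccine of TRP2 peptide with CpG and R848 on the third day and anti-CTLA-4 antibody on the fourth and the eighth day. Tumors were pooled within a genotype and CD4 and CD8 T cells were sorted, for which the labels name an anti-CD8 antibody alone and the methods antibodies to both, so that the CD4 and CD8 shares depend on a gate that is not settled here. Each genotype was 1 library for gene expression and 1 for T cell receptor sequences. With 1 library per genotype no difference between genotypes could be tested, and the intervals given are exact 95% intervals that cover counting error only. The expression tables held 72098984 UMIs over 10337 barcodes in WT and 59916814 over 10085 in VISTA-KO. The libraries shared 145 barcodes, and 2 C1q cells of each library were among them.

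The C1q cells fell into 3 subsets by what the rule recorded besides C1q. Those with no Cd3e UMI and no contig of the T cell receptor beta chain (TRB, an assembled receptor sequence) were few, at 6 cells in WT and 4 in VISTA-KO. Cd3e-positive cells without a contig numbered 69 in WT and 16 in VISTA-KO. Cd3e-positive cells with a contig numbered 47 and 52. No C1q cell had a contig without Cd3e, which at 0 of 122 and 0 of 72 cells allows shares of up to 2.98% and 4.99%. Below, these are the Cd3e-negative, the contig-free and the contig-bearing C1q cells, where contig-free and contig-bearing always mean Cd3e-positive. Reference T cells were the 7129 WT and 7784 VISTA-KO cells with Cd3e, a contig and no C1q UMI. Siglech cells, 145 and 103 in number, had 2 or more Siglech UMIs, under 5 C1q UMIs, no Cd3e and no contig.

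In WT, C1q cells made up 1.19% of all cells (0.992 to 1.42). In VISTA-KO they made up 0.724% (0.567 to 0.911). The C1q genes gave a median of 14 UMIs per C1q cell in WT, from 5 to 231, and 16.5 in VISTA-KO, from 5 to 224. C1qb gave 45.2% of these UMIs in WT and 46.1% in VISTA-KO, C1qa 28.2% and 26.4%, and C1qc 26.6% and 27.4%. All 3 genes were seen in 111 of 122 and 62 of 72 cells. A further 2 cells of each library had enough C1q but were left out for their Siglech UMIs. Just inside the limit, 12 WT and 5 VISTA-KO cells had exactly 5 UMIs, and just outside it 19 and 14 cells had 4. Those with 4 UMIs all carried Cd3e, as did those with 5.

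Being a C1q cell went with depth. C1q cells held a median of 13510.5 UMIs in WT and 7356.5 in VISTA-KO, against 4281 and 4551.5 in reference T cells. Among Cd3e-positive WT cells the C1q share was 0.192% under 4000 UMIs, 0.643% from 4000 to 8000, 2.16% from 8000 to 16000, 5.51% from 16000 to 32000 and 10.1% above. In VISTA-KO the same classes gave 0.262%, 0.659%, 1.56%, 2.16% and 4.0%. From 4000 to 16000 UMIs, over all cells, the WT share was 1.09% (0.830 to 1.40) and the VISTA-KO share 0.873% (0.652 to 1.14), so that within this range the intervals of the genotypes overlapped. A minimum of 5 UMIs is easier to reach in a deep cell. With a limit of 500 CPM in its place (CPM, the UMIs of a gene scaled to 1000000 UMIs of the cell or group), the shares were 1.21% (1.01 to 1.44) and 1.13% (0.928 to 1.35). With depth in the limit, the intervals of the libraries overlapped here as well.

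Free RNA in the droplets was gauged with the Siglech cells, which should lack C1q and were deeper than T cells (median 8299 UMIs in WT and 8712 in VISTA-KO). A C1q UMI was found in 1 of 145 WT Siglech cells (0.690%) and in 4 of 103 VISTA-KO ones (3.88%, 1.07 to 9.65). Among Cd3e-positive cells it was found in 4.71% and 4.05%. In WT the share of Cd3e-positive cells thus lay above the counting interval of the Siglech cells (0.0175 to 3.78), which rested on 1 cell. In VISTA-KO it lay within that interval, which rested on 4 cells. At least 5 C1q UMIs, the limit of the rule, occurred in 1.19% and 0.709% of Cd3e-positive cells. Siglech cells give no comparison for this share, because they were defined by fewer than 5 C1q UMIs, no Cd3e and no contig. Cells with 2 or more Siglech UMIs had Cd3e in 33.9% of WT and 25.4% of VISTA-KO cases.

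**Figure D1:**
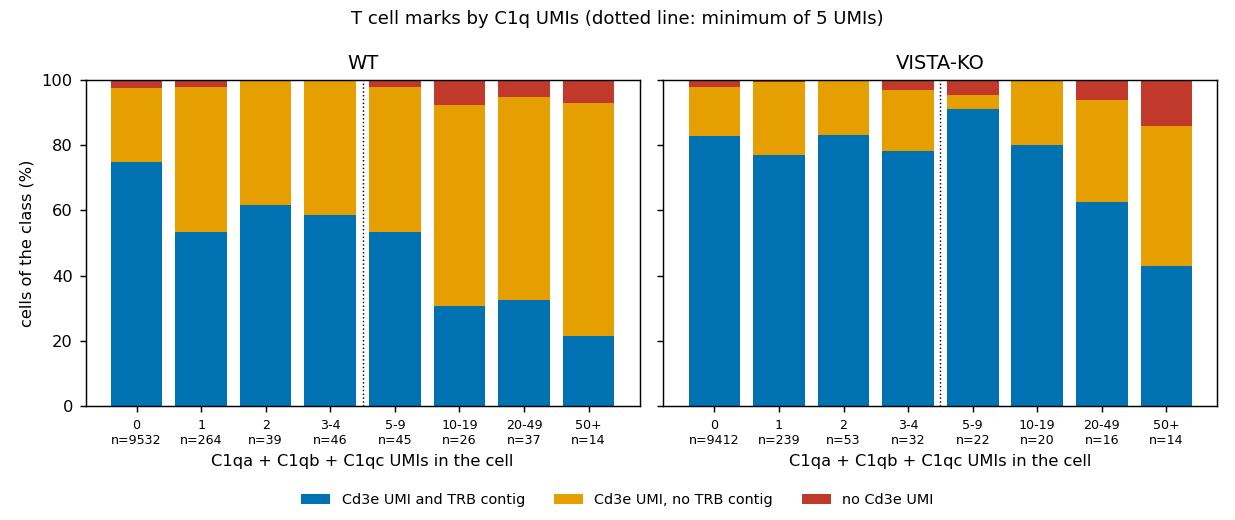
Stacked bars of the share of cells (y axis, percent) with a Cd3e UMI and a TRB contig, with Cd3e and no contig, and with no Cd3e UMI, by the C1q UMIs of the cell (x axis, with the number of cells), for WT and VISTA-KO; the dotted line is the minimum of 5 UMIs. Cells without Cd3e stay a small top segment, 1 of 14 in WT and 2 of 14 in VISTA-KO at 50 or more UMIs, while the segment with a contig shrinks.

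Cd3e did not give way as C1q rose. With 50 or more C1q UMIs, 13 of 14 WT and 12 of 14 VISTA-KO cells had a Cd3e UMI. The contig was found less in these cells. Its share among Cd3e-positive cells was 54.5% at 5 to 9 C1q UMIs in WT, 33.3% at 10 to 19, 34.3% at 20 to 49 and 23.1% at 50 or more. In VISTA-KO it was 95.2%, 80%, 66.7% and 50%. Over all Cd3e-positive C1q cells it was 40.5% (31.5 to 50.03) for WT and 76.5% (64.6 to 85.9) for VISTA-KO, beside 76.7% and 84.6% in Cd3e-positive cells without C1q.

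The contig share also moved with depth in cells with no C1q UMI at all. In those WT cells it was 85.1% under 4000 UMIs, 85.5% from 4000 to 8000, 53.1% from 8000 to 16000, 39.0% from 16000 to 32000 and 18.7% above. The WT C1q cells in the same classes had it in 6 of 7, 15 of 24, 17 of 34, 9 of 37 and 0 of 14 cells. In VISTA-KO the cells without C1q had 85%, 90.6%, 70.4%, 57.9% and 50%, and the C1q cells had it in 7 of 9, 28 of 29, 15 of 22, 2 of 7 and 0 of 1. At matched depth the counting intervals of C1q cells held the share of the other cells in all of these classes but 1: from 4000 to 8000 UMIs in WT the C1q share of 62.5% (40.6 to 81.2) lay below 85.5%. Contigs were thus missing from deep cells whether or not these held C1q.

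**Figure D2:**
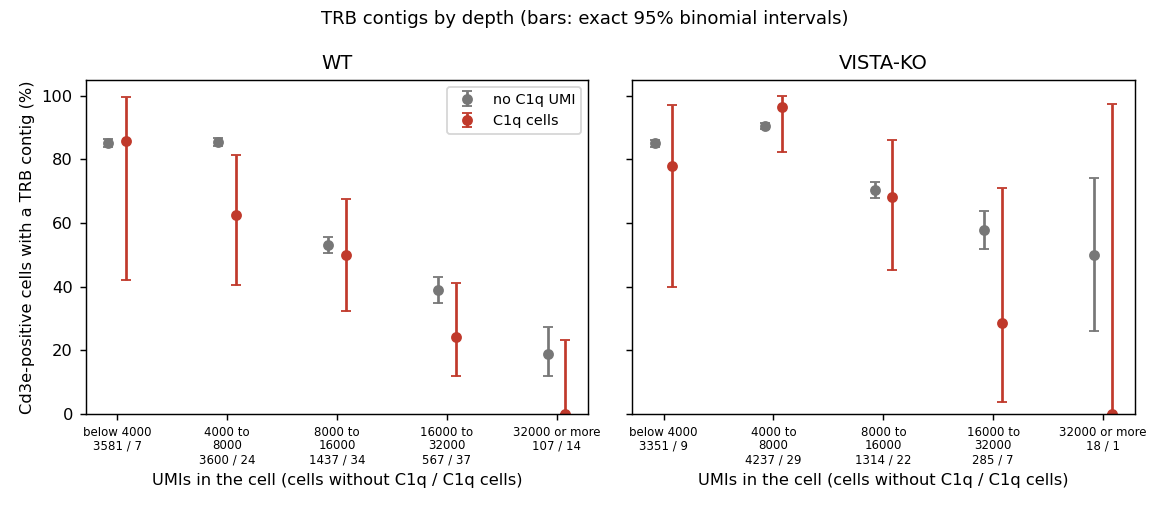
Share of Cd3e-positive cells with a TRB contig (y axis, percent) by UMIs per cell (x axis, classes), for cells without a C1q UMI and for C1q cells, WT and VISTA-KO, with exact 95% counting intervals. Both kinds of cell have a lower contig share at greater depth, in WT from 85.1% under 4000 UMIs to 18.7% at 32000 or more in cells without C1q.

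The 10 Cd3e-negative C1q cells had the highest macrophage level and the lowest T cell level of the 3 subsets. They were not all free of T cell RNA: 3 of the 6 WT and 2 of the 4 VISTA-KO cells had 2 to 4 UMIs of 6 T cell genes (Cd3d, Cd3e, Cd3g, Trac, Trbc1 and Trbc2). All 10 had at least 3 of 16 macrophage markers (among them Csf1r, Adgre1, Cd68, Lyz2, Fcgr1, Fcgr3, Cd14, Aif1, Itgam, Mertk, Tyrobp, Fcer1g, Ms4a7, Apoe and Ctss), from 4 to 14 of them for WT cells and from 6 to 15 for VISTA-KO cells. Their 16 genes summed to 23673 and 16075 CPM in WT and VISTA-KO, against 336 and 277 CPM in reference T cells. The T cell list of 13 genes summed to 702 CPM and 226 CPM, against 9088 and 8973 in reference T cells. This list includes Cd3e, which by selection is at 0 UMIs here and at 1 or more in reference T cells. Without Cd3e the median cell stood at 929 and 433 CPM in WT and VISTA-KO, against 7871 and 7641 CPM in reference T cells. Mertk, a receptor for dying cells, was the only one of the 16 at 0 UMIs in WT, and it had 1 UMI in VISTA-KO.

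These 10 cells were not alike. The deepest WT cell (10924 UMIs) had 32 C1q UMIs but none of C1qa, with 57 UMIs of the endotoxin co-receptor Cd14, 106 of the monocyte gene Ly6c2, 23 of Il1b and 501 of Cd74, the invariant chain of MHC class II. The next WT cell (9327 UMIs) had 231 C1q UMIs, 323 of Cd74, none of Cd14 and none of Ly6c2. Both had 3 UMIs of the monocyte receptor Ccr2, and the second also had 5 of Il1b. The other 4 WT cells held only 1076 to 2494 UMIs, with 8 to 26 of C1q, and 3 of them were the WT cells with UMIs of the 6 T cell genes. WT cell 4 also had 5 UMIs of Cd8a. In VISTA-KO the deepest cell (28902 UMIs) had 22 C1q UMIs, 1057 of Cd74, 80 of Il1b, 20 of Itgax, the integrin of dendritic cells, and 1 of Apoe. The second (17403 UMIs) had 92 C1q UMIs with 30 of Il1b and 26 of Ccr2. The third (9247 UMIs) had 224 C1q UMIs with 155 of lysozyme (Lyz2), 41 of the lipid carrier Apoe and 26 of the mannose receptor Mrc1, and 3 T cell UMIs. The fourth had 2053 UMIs, 6 of C1q, 11 of Lyz2, 2 of the T cell genes and none of Cd74. The cells with most C1q in each library, WT cell 2 and VISTA-KO cell 3, held no or little Il1b, at 5 and 0 UMIs.

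Among the genes at least 10-fold above reference T cells in both libraries (95 genes), the 20 of highest level in Cd3e-negative C1q cells were led by antigen presentation. Cd74 stood at 31687 and 29199 CPM in WT and VISTA-KO. The MHC class II chains H2-Aa (10230 and 11197 CPM), H2-Ab1 (7830 and 9496 CPM) and H2-Eb1 (7460 and 8419 CPM) followed. From 1 cell came 58.4% and 62.8% of the Cd74 UMIs, and 52.4% to 62.9% of those of the 3 class II chains. Others were the lysosomal proteins Psap and Ctss, the protease inhibitor Cst3, the Fc receptor adaptors Fcer1g and Tyrobp, the membrane proteins Ifitm2 and Ifitm3, and Tgfbi, Alox5ap, Wfdc17, Plbd1 and H2-DMb1. Lyz2 was at 3693 and 3715 CPM, and Apoe at 1920 and 955 CPM, with 72.4% and 74.5% of their VISTA-KO UMIs from 1 cell. Cd14 at 2105 CPM in WT came from 1 cell, and in VISTA-KO, at 503 CPM, 93.1% of it came from 1 of 3 cells. C1q is only part of this RNA, and much of the rest is shared by macrophages, monocytes and dendritic cells.

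The other cell types of a tumor were looked for with their markers. Neutrophil, NK cell, mast cell, fibroblast and melanoma lists summed to 0 UMIs in the WT Cd3e-negative cells, and in VISTA-KO to 0 except 1 UMI of Csf3r. The B cell list was not at 0: 3 UMIs in WT (111 CPM, against 9.41 CPM in reference T cells) and 1 in VISTA-KO, all of Cd79b, with Cd79a and Ms4a1 at 0. The plasmacytoid list stood at 1145 and 660 CPM in WT and VISTA-KO, against 304 and 311 CPM, with Siglech, Ly6d, Cox6a2 and Klk1 at 0 in both, and was led by Bst2 in WT and Irf8 in VISTA-KO. Xcr1, Clec9a and Cd209a, which mark conventional dendritic cells, were at 0 in the WT Cd3e-negative cells, where Itgax (3 UMIs) was the only dendritic gene found. In VISTA-KO the dendritic list summed to 26 UMIs, with 21 of Itgax and 1 each of Xcr1 and Clec9a. In contig-bearing C1q cells the melanoma list stood at 8.15 and 10.2 CPM in WT and VISTA-KO, below the 68.3 and 230 CPM of reference T cells. The C1q values rested on 4 melanoma UMIs in each library. Fibroblast genes gave 0 UMIs in WT C1q cells and 1 UMI in VISTA-KO.

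Contig-free C1q cells, the 69 in WT and 16 in VISTA-KO, held macrophage RNA and T cell RNA together. Their macrophage list summed to 3183 and 7438 CPM in WT and VISTA-KO, which was 13.4% and 46.3% of the level in Cd3e-negative C1q cells. Per cell it ran from 394 to 15168 CPM with a median of 2419 CPM in WT, and from 220 to 22584 CPM with a median of 6095 CPM in VISTA-KO. The lowest T cell list was 0 CPM, in 1 WT cell of 13755 UMIs whose Cd3e was its only T cell gene found. All 69 and all 16 had at least 3 of the 16 markers, which 1.68% of WT and 1.45% of VISTA-KO reference T cells had. The T cell list without Cd3e stood at 91.5% of the reference T cell level in WT and 69.4% in VISTA-KO. With a median of 18588 UMIs in WT and 12886.5 in VISTA-KO, the contig-free cells were the deepest of the Cd3e-positive cells compared here. No doublet caller was run, and whether a barcode held 1 cell or 2 was not tested.

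Contig-bearing C1q cells held the same kinds of RNA. The macrophage list summed to 2520 and 5478 CPM in WT and VISTA-KO, or 10.6% (9.67 to 11.7) and 34.1% (31.5 to 36.8) of the level in Cd3e-negative C1q cells. As a mean over cells of each cell's CPM, the WT value was 18.3%, outside its counting interval, and the VISTA-KO value 31.9%. Per cell it ran from 231 to 28535 CPM with a median of 2250 CPM in WT, and from 0 to 37707 CPM with a median of 3220 CPM in VISTA-KO. At least 3 of the 16 markers were found in 46 of 47 and 50 of 52 cells. Their T cell list without Cd3e stood at 82.8% (79.9 to 85.8) and 88.3% (84.9 to 91.7) of reference T cells. As sums over the subset, these barcodes thus held T cell genes at 82.8% and 88.3% of the reference level, with macrophage RNA beside them. Single cells varied, with T cell lists from 2087 to 12366 CPM in WT and from 1123 to 16173 CPM in VISTA-KO. The medians of reference T cells were 7871 and 7641 CPM. In 1 VISTA-KO cell the macrophage list was at 0 CPM.

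**Figure D3:**
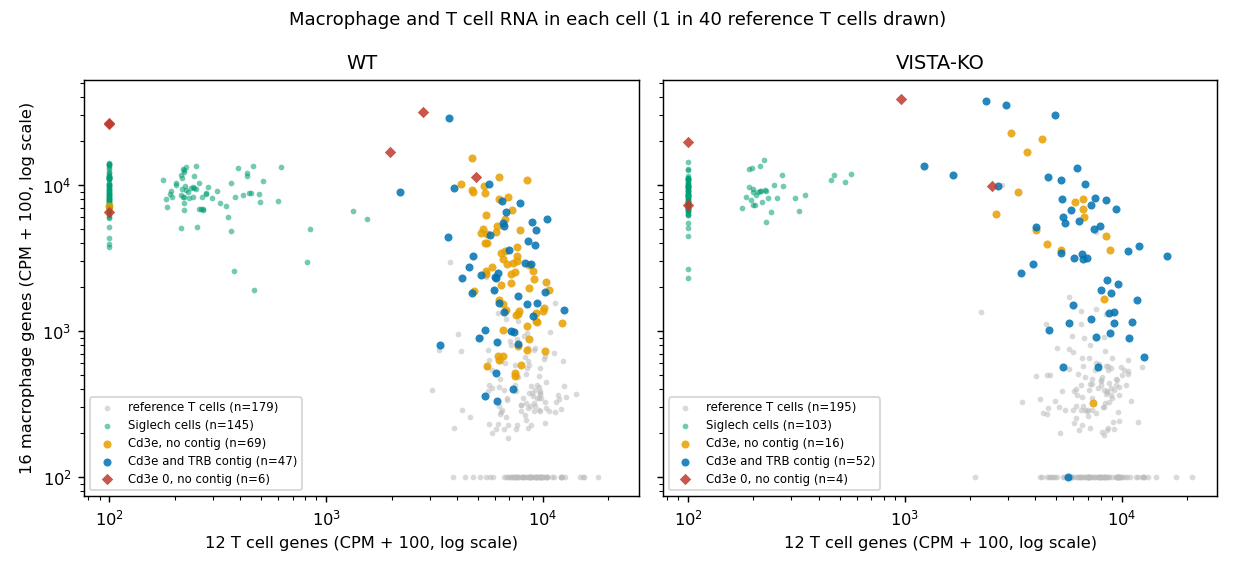
Summed T cell list without Cd3e (x axis) against the summed list of 16 macrophage genes (y axis), each as CPM of the cell plus 100 on a logarithmic axis, 1 point per cell, for C1q cells by subset, Siglech cells and 1 in 40 reference T cells. Most Cd3e-positive C1q cells lie near the T cell level of reference T cells and above them on the macrophage axis, with subset medians from 2250 to 6095 CPM.

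Beside reference T cells, both Cd3e-positive subsets stood higher for macrophage genes, and most T cell genes stood somewhat lower in them. A gene was counted where it reached 50 CPM in either group, and a fold was the ratio of summed CPM after adding 10 CPM to each. Of the macrophage list only Ctss and Fcer1g reached 50 CPM in WT reference T cells, and only Ctss in VISTA-KO ones. The others could enter a count only where the C1q cells were high, so no count is given for this list. Ctss stood at 179 CPM in WT reference T cells, 373 in contig-free and 332 in contig-bearing cells, and in VISTA-KO at 150, 908 and 495 CPM. Fcer1g stood at 54.4, 530 and 538 CPM, and at 48.2, 1382 and 878 CPM. Of the 4 MHC class II genes that reached 50 CPM in WT reference T cells, 4 were at least 2-fold higher in contig-free cells (2.51% of 3340 genes higher, 0.0299% lower) and 2 in contig-bearing cells (2.13% of 3478 higher, 1.01% lower). In VISTA-KO only Cd74 reached it, and it was higher in both subsets (6.35% of 3637 genes higher and 3.52% lower in contig-free, 3.96% of 3486 higher and 0.746% lower in contig-bearing cells). Of 13 T cell genes 0 were past 2-fold in any of these 4 comparisons, with median log2 ratios of -0.13 and -0.31 in WT contig-free and contig-bearing cells and -0.43 and -0.18 in VISTA-KO. Those above the reference level were 2 and 0 of 13 in WT, and 0 and 2 of 13 in VISTA-KO. The Cd3e-negative cells had 12 of 13 T cell genes at least 2-fold lower in WT (25.8% of 4105 genes lower, 24.1% higher) and 13 of 13 in VISTA-KO (19.9% of 4453 lower, 22.2% higher). All C1q cells were selected for C1q, and these for a lack of Cd3e, so the values describe the selection.

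Over both subsets and libraries, 48 of 2382 genes (2.02%) were at least 2-fold higher in both Cd3e-positive subsets of both libraries, and 0 of 3010 were 2-fold lower. The first count took genes that reached 50 CPM in all 4 C1q groups, and the second those that reached it in both groups of reference T cells, so the counts are not to be set against each other. Apoe had the highest of the smallest folds over the 4 comparisons, at 22.5. Legumain (Lgmn), a lysosomal protease, followed at 10.9, then Tyrobp (8.60), the chemokine Ccl8 (8.47), Lyz2 (8.43), Ms4a7 (8.39), Fcer1g (8.38), the chemokine Ccl12 (7.88), Wfdc17 (7.16) and the chemokine Ccl2 (7.01). Cd68, Fcgr3, Aif1, the heme-degrading enzyme Hmox1 and the myeloid transcription factor Spi1 were also among the first 20. These are genes that macrophages are known for, and since C1q chose the cells they describe the cells rather than test them.

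Contig-free and contig-bearing cells shared some myeloid genes evenly and others not. Levels were compared as UMIs above the reference T cell level per 100 C1q UMIs. Lgmn stood at 10.9 and 10.3 in contig-free and contig-bearing cells of WT, and at 12.3 and 9.46 in VISTA-KO. Adgre1, a surface marker gene of mouse macrophages, gave 1.5 and 2.06 in WT and 2.47 and 2.34 in VISTA-KO. Ccl12 gave 4.84 in both WT subsets, where 70% of the UMIs of contig-bearing cells came from 1 cell, and 7.26 and 7.41 in VISTA-KO. Ms4a7, a membrane protein of tissue macrophages, gave 5.09 and 7.29, and 4.32 and 5.22. For these 4 genes the subsets lay within 1.5-fold of each other in each library.

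MHC class II genes, Il1b and Cd14 were lower in contig-bearing cells on this scale, and so were most of the 16 macrophage markers. Csf1r gave 4.19 and 1.47 in contig-free and contig-bearing WT cells, and 5.54 and 2.24 in VISTA-KO. Lyz2 gave 45.9 and 20.7, and 65.9 and 47.5. Of the 16, Ms4a7 was higher in both libraries, and Adgre1, Aif1, Cd68 and Fcgr1 differed in direction between the libraries. Cd74 stood at 262 UMIs per 100 C1q UMIs in Cd3e-negative WT cells, 190 in contig-free and 26.1 in contig-bearing ones. In VISTA-KO it was 486, 224 and 71.8. H2-Aa went from 60.3 in contig-free to 5.99 in contig-bearing WT cells, and from 64.3 to 27.0 in VISTA-KO. Il1b, the inflammatory cytokine of monocytes and macrophages, gave 10.3 and -0.22 in WT and 9.88 and 0.39 in VISTA-KO, where a negative value lies below the reference T cell level. Of the contig-free Il1b UMIs, 42.2% and 44.6% came from 1 cell. Cd14 gave 4.0 and 0.57 in WT and 5.48 and 0.63 in VISTA-KO, where 53.2% and 55.6% of the contig-free UMIs came from 1 cell. The genes of the monocyte list did not all share this order: Plac8 gave 1.59 and 6.53 in WT and 5.38 and 3.51 in VISTA-KO, and Ccr2 gave 0.75 and -5.36 in WT and 0.04 in both VISTA-KO subsets. Il1b RNA of Cd3e-positive C1q cells was nearly all in cells without a contig, in 10 of 69 and 3 of 16 contig-free cells against 1 of 47 and 3 of 52 contig-bearing ones. The contig-free cells were deeper. From 4000 to 16000 UMIs Il1b was found in 1 of 26 against 1 of 32 WT cells, and in 1 of 8 against 2 of 43 VISTA-KO cells. In WT the subsets thus did not stand apart in this count at like depth.

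Part of this came from a few cells with very much Cd74. At least 50 Cd74 UMIs were found in 15 of 69 WT and 6 of 16 VISTA-KO contig-free cells, and in 1 of 47 and 6 of 52 contig-bearing cells. A fixed number of UMIs is easier to reach in the deeper contig-free cells: from 4000 to 16000 UMIs it was 2 of 26 against 0 of 32 in WT, and 2 of 8 against 6 of 43 in VISTA-KO. With the reference T cell level left in, the median cell had 77.4 Cd74 UMIs per 100 C1q UMIs among contig-free and 33.3 among contig-bearing WT cells, and 95.4 and 52.8 in VISTA-KO. From 4000 to 16000 UMIs per cell these medians were 64.4 and 32.5 in WT and 95.4 and 50 in VISTA-KO, so the direction was the same at like depth. H2-Aa was seen in 42 of 69 and 13 of 16 contig-free cells and in 27 of 47 and 39 of 52 contig-bearing ones. After each cell was thinned to 2000 UMIs, H2-Aa was found in 37.7% and 34.8% of WT and in 68.8% and 53.8% of VISTA-KO cells of the contig-free and contig-bearing subsets, against 1.47% and 0.838% of reference T cells. The thinned shares for Lyz2 were 50.7% and 47.8% in WT and 68.8% and 59.6% in VISTA-KO, and before thinning 88.4% and 74.5%, and 93.8% and 78.8%.

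**Figure D4:**
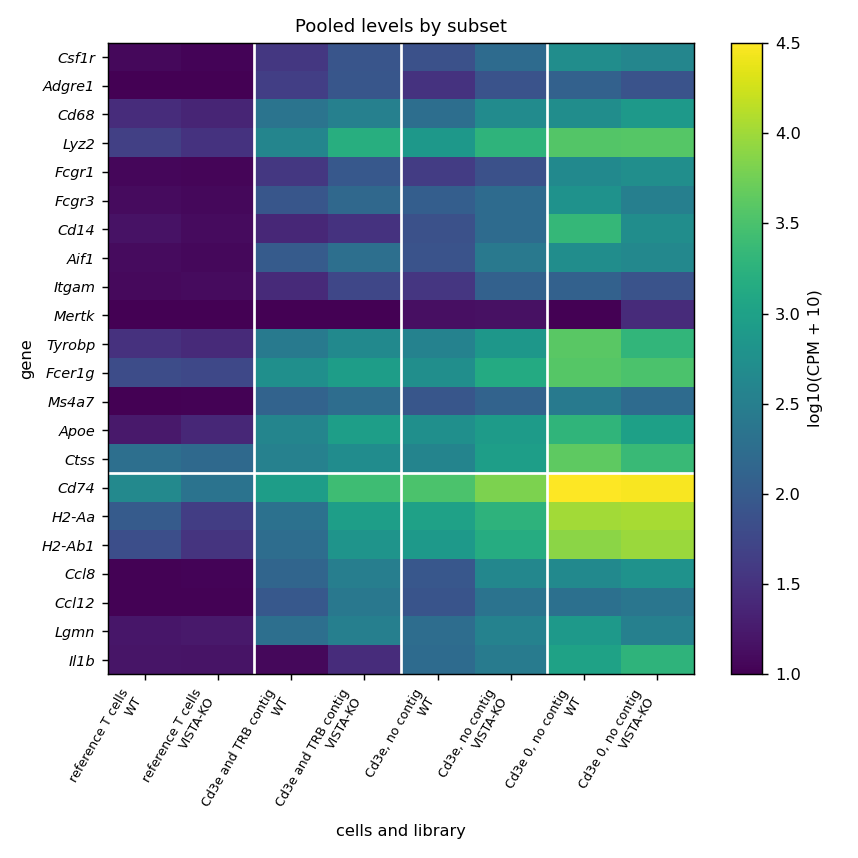
Heat map of 22 genes (y axis; above the white line 15 of the 16 macrophage genes, below it MHC class II genes, chemokines, Lgmn and Il1b) in reference T cells and the C1q subsets of WT and VISTA-KO (x axis), coloured by log10 of the summed CPM plus 10. Levels of most genes step up from reference T cells to Cd3e-negative cells, Lyz2 in WT from 36.6 to 383, 719 and 3693 CPM, and Il1b stays dark in contig-bearing cells.

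Only 2 of 2719 genes (0.0736%) were at least 2-fold higher in contig-bearing C1q cells than in both Cd3e-negative C1q cells and reference T cells in both libraries. The 2719 genes were those that reached 50 CPM in contig-bearing cells of both libraries. Fabp5, a carrier of fatty acids, stood at 261 and 539 CPM in WT and VISTA-KO, against 63.7 and 73.4 CPM in reference T cells. In VISTA-KO 31.8% of its UMIs came from 1 cell. The decoy receptor Il1r2 stood at 91.7 and 56.2 CPM against 36.8 and 15.4 CPM, from 5 and 4 cells, with 44.4% and 68.2% of the UMIs from 1 cell. Of the groups compared here Il1r2 reached 50 CPM in contig-bearing cells alone, so it entered the count only because it was high there. Contig-free cells were not part of this comparison. They held Fabp5 at 188 and 280 CPM in WT and VISTA-KO, and Il1r2 at 58.7 and 0 CPM, so neither gene was particular to contig-bearing cells in WT. Both genes rested on few UMIs in Cd3e-negative cells, at 3 and 6 for Fabp5 and 1 and 0 for Il1r2.

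The T cells in these barcodes were mostly of the CD8 lineage. Cd8a stood at 976 and 929 CPM in WT and VISTA-KO contig-bearing cells, against 711 and 574 CPM in reference T cells. Cd8b1, the other chain of CD8, was level in WT at 1045 CPM against 1066 CPM, and in VISTA-KO it stood at 1085 CPM against 808 CPM. Cd4 was lower, at 53.0 and 102 CPM against 99.0 and 195 CPM. Foxp3, the factor of regulatory T cells, stood at 85.6 and 86.8 CPM against 142 and 129 CPM. In contig-free cells Foxp3 gave 199 UMIs in 23 of 69 WT cells and 0 UMIs in 16 VISTA-KO cells.

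The receptors gave the lineage without using the RNA of the C1q cells. A clonotype, here a beta-chain V gene with its junction sequence, was called CD8, regulatory or conventional CD4 by the majority of its cells without C1q, from their Cd8a, Cd8b1, Cd4 and Foxp3 UMIs. Of contig-bearing C1q cells whose clonotype had a kind, 34 of 39 in WT (87.2%, 72.6 to 95.7) and 30 of 38 in VISTA-KO (78.9%, 62.7 to 90.4) were in CD8 clonotypes. Reference T cells of clonotypes with 2 or more such cells gave 72.3% (71.0 to 73.6) and 58.3% (56.8 to 59.8). The lower bounds for C1q cells lay above these shares, in WT narrowly. They did not with a limit of 500 CPM in WT (80.9%, 66.7 to 90.9) or of 10 C1q UMIs in VISTA-KO (77.3%, 54.6 to 92.2). Reference T cells help to set the kind of their own clonotype while C1q cells do not. Regulatory clonotypes held 4 of 39 and 2 of 38, and conventional CD4 clonotypes 1 of 39 and 6 of 38.

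The C1q cells were spread over many clones. The 47 contig-bearing WT cells belonged to 36 clonotypes, of which 29 were met once, and the 52 VISTA-KO cells to 44, of which 40 were met once. Other T cells of the library shared the clonotype of 39 and 40 of these cells, and no clonotype occurred in the C1q cells of both libraries. The junctions of 3 of the clonotypes with most C1q cells in each library are shown because barcodes with these receptors held C1q RNA more than once. They run 5′ to 3′ as read from the assembled contigs, with the first and the last codon of the junction in capitals.
WT TRBV12-2: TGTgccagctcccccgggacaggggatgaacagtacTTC
WT TRBV10: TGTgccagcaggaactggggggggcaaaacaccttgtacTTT
WT TRBV1: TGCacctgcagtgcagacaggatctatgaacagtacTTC
VISTA-KO TRBV13-1: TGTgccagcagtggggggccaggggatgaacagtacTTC
VISTA-KO TRBV16: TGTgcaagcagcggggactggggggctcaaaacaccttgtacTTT
VISTA-KO TRBV2: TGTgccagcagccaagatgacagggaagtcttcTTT

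All 6 were CD8 clonotypes by their cells without C1q. The WT TRBV12-2 junction was the largest clone of its library, with 1090 of 7525 contig-bearing cells (14.5%), and it had 5 of the 47 C1q cells (10.6%, 3.55 to 23.1). The WT TRBV10 junction, the second clone of the library with 323 cells (4.29%), had 3 C1q cells. TRBV1 ranked 7 in WT, with 55 cells and 2 C1q cells. The VISTA-KO TRBV13-1 junction was the largest clone there, with 300 of 8212 cells (3.65%), and had 6 of the 52 C1q cells (11.5%, 4.35 to 23.4). TRBV16 and TRBV2 in VISTA-KO ranked 19 and 21, with 24 and 23 cells and 2 C1q cells each. These 6 were chosen for their number of C1q cells, so their C1q shares are a description only. Those with 2 C1q cells were tied with others of their library that are not shown.

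More than 1 beta chain per barcode was also counted. At least 2 productive TRB contigs were found in 10 of 47 contig-bearing WT cells (21.3%, 10.7 to 35.7) and 6 of 52 VISTA-KO cells (11.5%, 4.35 to 23.4), against 5.22% and 6.81% of reference T cells. By depth, contig-bearing WT cells without C1q had it in 5.04% from 4000 to 8000 UMIs, 14.8% from 8000 to 16000 and 9.05% from 16000 to 32000, beside 2 of 15, 5 of 17 and 3 of 9 C1q cells. In VISTA-KO the same classes gave 5.73%, 21.7% and 16.4%, beside 1 of 28, 4 of 15 and 1 of 2. Without the cells that had 2 or more chains, the macrophage list of contig-bearing cells stood at 12.3% and 38.6% of the Cd3e-negative level.

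Between the genotypes, macrophage genes stood higher per UMI of the cell in VISTA-KO than in WT in both Cd3e-positive subsets, and so did C1q, which chose the cells. C1q summed to 1486 and 2781 CPM in WT and VISTA-KO contig-free cells, a ratio of 1.87, and to 1675 and 3268 CPM in contig-bearing ones, a ratio of 1.95. On the scale of UMIs above reference T cells per 100 C1q UMIs, the ratio of VISTA-KO over WT over the macrophage genes that reached 50 CPM had a median of 1.44 in contig-free cells, with 12 of 15 above 1, and of 1.10 in contig-bearing cells, with 7 of 12 above 1. The macrophage difference was thus smaller beside C1q than in CPM. On that scale the direction of Apoe and Cd68 depended on the subset. Apoe stood at 36.4 and 29.2 in WT and VISTA-KO contig-free cells but at 22.2 and 27.8 in contig-bearing ones, and Cd68 at 10.7 and 16.7 but at 11.6 and 9.45. Lyz2 was higher in VISTA-KO on both scales, at 45.9 and 65.9 per 100 C1q UMIs in contig-free and 20.7 and 47.5 in contig-bearing cells.

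The CPM ratios of single genes follow. In contig-free cells, 10 of the 15 macrophage genes that reached 50 CPM were at least 2-fold higher and 0 lower, with a median log2 ratio of 1.26. Of the 15, 4 reached 50 CPM in VISTA-KO alone, 3 of them among the 10, and 0 in WT alone, so the limit feeds this count. With a limit of 50 CPM on the mean of the libraries, set after the values were seen, it was 9 of 13. Of all 3590 genes 7.52% were past 2-fold, 3.84% higher and 3.68% lower, with a median of -0.04. Csf1r, the receptor for the macrophage growth factor, was at 64.2 and 155 CPM in WT and VISTA-KO, a ratio of 2.41 (1.60 to 3.58). Adgre1 was at 22.5 and 68.9 CPM (3.06, 1.57 to 5.71), and Lyz2 at 719 and 1855 CPM (2.58, 2.30 to 2.89). Ms4a7 and Apoe were nearer, at ratios of 1.59 (1.01 to 2.42) and 1.51 (1.28 to 1.77).

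In contig-bearing cells 4 of 12 macrophage genes were at least 2-fold higher and 0 lower, with a median log2 ratio of 0.88. Of the 12, 3 reached 50 CPM in VISTA-KO alone, 2 of them among the 4 (Csf1r and Fcgr1), and with the limit on the mean it was again 4 of 12. Of all 3559 genes 4.66% were past 2-fold, 3.09% higher and 1.57% lower, with a median of -0.03. Lyz2 was at 383 and 1575 CPM (4.11, 3.49 to 4.87), with 30.5% of the VISTA-KO UMIs from 1 cell. Apoe was at 379 and 922 CPM (2.43, 2.03 to 2.92). Csf1r was at 26.5 and 74.0 CPM (2.79, 1.41 to 5.86), and Fcgr1, the high-affinity Fc receptor, at 26.5 and 81.7 CPM (3.08, 1.57 to 6.40). Cd68 differed less, at 212 and 322 CPM (1.52, 1.16 to 1.99), and the interval for Ms4a7 reached below 1, at 1.40 (0.973 to 2.02).

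MHC class II stood higher in CPM in VISTA-KO in both subsets. The ratios of Cd74, H2-Aa, H2-Ab1 and H2-Eb1 were higher in contig-bearing than in contig-free cells. That of H2-DMb1 was lower there, at 2.42 (1.26 to 4.86). In contig-bearing cells all 6 class II genes that reached 50 CPM were past 2-fold higher (3.09% of all genes), with a median log2 ratio of 1.69. Of these, 2 reached 50 CPM in VISTA-KO alone, so 4 of 4 rest on genes that reached it in WT. H2-Aa was at 192 and 916 CPM in WT and VISTA-KO contig-bearing cells (4.79, 3.80 to 6.07), and Cd74 at 874 and 2550 CPM (2.92, 2.60 to 3.27). In contig-free cells 1 of 6, H2-DMb1 at 3.05 (2.28 to 4.04), was past 2-fold higher (3.84% of all genes). H2-Aa was at 987 and 1821 CPM there (1.84, 1.65 to 2.06). Per 100 C1q UMIs the contig-free cells were near equal, with a median ratio of 1.07 over the 6 genes and H2-Aa at 60.3 and 64.3, while in contig-bearing cells the median ratio was 2.86 over the 5 genes above the reference T cell level in both libraries. The difference between the subsets was not tested. Reference T cells ran the other way, with Cd74 at 437 and 205 CPM in WT and VISTA-KO. The scale per C1q UMI subtracts this level within each library, which raises the ratio of VISTA-KO over WT. For Cd74 in contig-bearing cells it gave 26.1 and 71.8 in WT and VISTA-KO. With the reference level left in, the values were 52.2 and 78.0.

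Complement genes other than C1q, which the rule did not use, were few. C3ar1 and C5ar1 encode the receptors for the fragments C3a and C5a. C3ar1 was at 29.4 and 103 CPM in WT and VISTA-KO contig-free cells (3.52, 2.04 to 5.93), and at 32.6 and 123 CPM in contig-bearing ones (3.76, 2.10 to 7.09). C5ar1 was at 22.5 and 133 CPM (5.92, 3.51 to 9.97), where 77.4% of the VISTA-KO UMIs came from 1 cell, and at 20.4 and 58.7 CPM (2.88, 1.32 to 6.78). Properdin (Cfp), which stabilises the alternative convertase, was at 38.9 and 108 CPM (2.76, 1.65 to 4.50), and at 24.4 and 81.7 CPM (3.34, 1.68 to 7.12). In both subsets these 3 genes reached 50 CPM in VISTA-KO alone. Serping1, C1s1 and Masp1 were at 0 in every C1q subset, and C2, C3, C4b, Hc and C1ra gave 0 to 7 UMIs in any subset. Beside C1q itself, the complement RNA found in the Cd3e-positive cells was thus mainly that of receptors and properdin.

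Chemokines gave some of the highest ratios, and their median ratio per C1q UMI was 2.53 in contig-free and 1.62 in contig-bearing cells. In contig-free cells 6 of 10 were at least 2-fold higher and 1 lower, beside 3.84% and 3.68% over all genes. Of the 10, 3 reached 50 CPM in VISTA-KO alone, 2 of them among the 6. Ccl2, which draws monocytes, was at 72.4 and 783 CPM in WT and VISTA-KO contig-free cells (10.8, 8.47 to 13.9), where 34.6% of the VISTA-KO UMIs came from 1 of 8 cells. Ccl7 was at 38.3 and 430 CPM (11.3, 8.03 to 15.9), with 60% from 1 cell. Ccl8 was at 79.2 and 409 CPM (5.16, 3.89 to 6.83). In contig-bearing cells 6 of 8 were higher and 0 lower, beside 3.09% and 1.57% over all genes. Of the 6, 2 reached 50 CPM in VISTA-KO alone. Ccl2 was there at 83.5 and 276 CPM (3.30, 2.28 to 4.85) and Ccl12 at 81.5 and 243 CPM (2.98, 2.04 to 4.42). Ccl3, which CD8 T cells also make, was the lower one in contig-free cells, at 475 and 129 CPM (0.272, 0.182 to 0.392).

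Lysosomal genes were past 2-fold in 8 of 13 cases in contig-free cells (0 lower, median log2 ratio 1.26) and in 0 of 12 in contig-bearing ones (0 lower, median 0.53). Among all genes 3.84% were higher and 3.68% lower in contig-free cells, and 3.09% and 1.57% in contig-bearing cells. Of the 8, 2 reached 50 CPM in VISTA-KO alone. Per C1q UMI their median ratios were 2.11 and 0.991. Psap was at 647 and 2496 CPM in WT and VISTA-KO contig-free cells (3.86, 3.47 to 4.28), with 45% from 1 cell, and at 634 and 1031 CPM in contig-bearing cells (1.63, 1.40 to 1.89). Phagocytic receptors were higher in 3 of 6 and 2 of 4 cases, all of which reached 50 CPM in VISTA-KO alone. The inhibitory Fc receptor Fcgr2b was at 18.3 and 130 CPM in WT and VISTA-KO contig-bearing cells (7.10, 3.46 to 16.4) and near equal in contig-free ones at 97.7 and 108 CPM (1.10, 0.690 to 1.69).

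Genes of resident and tumor macrophages were mixed. Cd163 and Timd4, which mark some resident macrophages, were at 0 in all Cd3e-positive C1q cells. Trem2 was at 37.6 and 99.0 CPM in WT and VISTA-KO contig-free cells (2.64, 1.55 to 4.36), where 82.6% of the VISTA-KO UMIs came from 1 cell, and at 38.7 and 66.4 CPM in contig-bearing ones (1.71, 0.913 to 3.28). Selenop, a selenium carrier, was at 87.6 and 278 CPM in contig-bearing cells (3.18, 2.21 to 4.63), with 40.4% from 1 VISTA-KO cell. Spp1 went opposite ways, at 40.3 and 185 CPM in contig-free cells and 42.8 and 7.66 CPM in contig-bearing ones, which rested on 59, 43, 21 and 3 UMIs. In all, 5 of 9 genes of this list were past 2-fold higher in contig-free cells and 2 of 5 in contig-bearing cells, with 0 lower in either. All 5 of the former reached 50 CPM in VISTA-KO alone and 0 of the latter. The shares over all genes were 3.84% higher and 3.68% lower in contig-free cells, and 3.09% and 1.57% in contig-bearing cells.

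Interferon, checkpoint and monocyte genes, inflammatory genes and genes of alternative activation and cell division made up the remaining lists. Over all genes, 3.84% were higher and 3.68% lower in contig-free cells, and 3.09% and 1.57% in contig-bearing cells. Of interferon response genes 2 of 8 were higher and 0 lower in contig-free cells, and 1 higher and 1 lower of 8 in contig-bearing cells. Of the former 2, 1 reached 50 CPM in VISTA-KO alone, and the lower gene of contig-bearing cells reached it in WT alone. Of checkpoint ligands 1 of 7 and 3 of 6 were higher, 2 of the latter 3 having reached 50 CPM in VISTA-KO alone, led in contig-bearing cells by Sirpa, at 10.2 and 63.8 CPM in WT and VISTA-KO (6.26, 2.36 to 21.0). Monocyte genes were higher in 2 of 5 and 2 of 4 cases, and 1 of the 2 in contig-free cells reached 50 CPM in VISTA-KO alone. Inflammatory genes were higher in 1 of 4 in contig-free cells, and in contig-bearing cells 1 of 3 was higher and 1 lower. Both of the latter reached 50 CPM only in the library where they stood higher, so the limit fed these calls. Alternative activation genes were higher in 3 of 4 and 0 of 2, with median log2 ratios of 1.52 and 0.49, and all 3 reached 50 CPM in VISTA-KO alone. In contig-free cells 3 of 3 cell division genes were at least 2-fold lower in VISTA-KO (median log2 ratio -2.16), 2 of them at 50 CPM in WT alone, with the list at 375 and 77.5 CPM in WT and VISTA-KO, while in contig-bearing cells it stood at 503 and 375 CPM with 0 past 2-fold.

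T cell genes served as the comparison. Of 13, 0 were past 2-fold in either direction in either subset, with median log2 ratios of -0.30 in contig-free and 0.13 in contig-bearing cells. Cd3d was at 986 and 1006 CPM in WT and VISTA-KO contig-bearing cells (1.02, 0.891 to 1.17). In contig-free cells it was at 1074 and 779 CPM (0.726, 0.619 to 0.847).

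**Figure D5:**
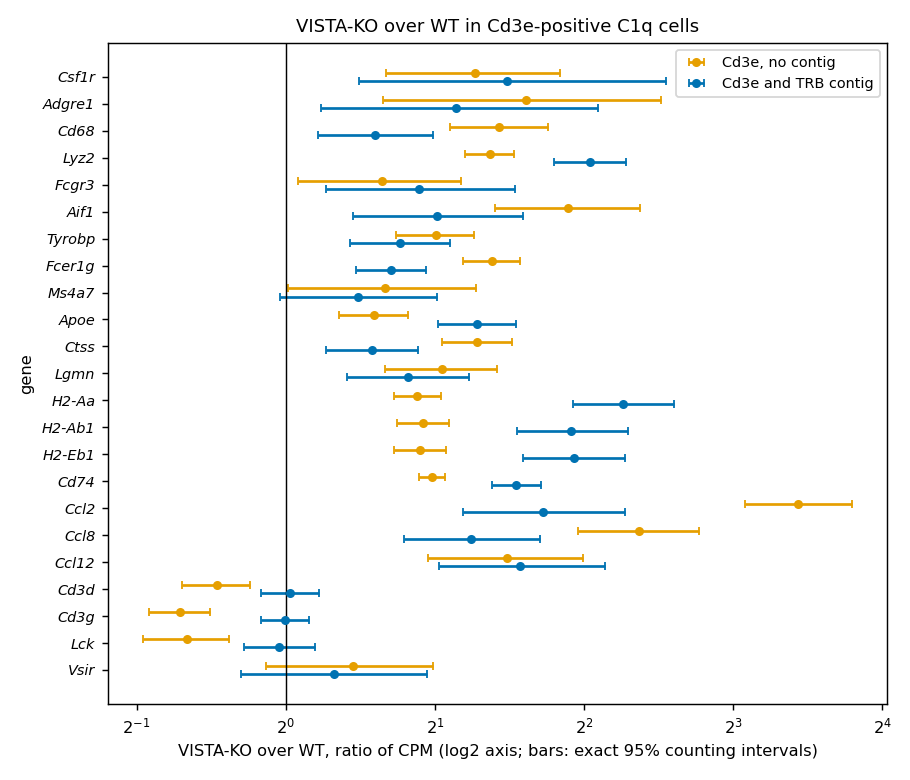
Ratio of summed CPM, VISTA-KO over WT (x axis, logarithmic), for 23 genes (y axis) in contig-free and contig-bearing C1q cells, with exact 95% counting intervals; the vertical line marks no difference. The macrophage, MHC class II and chemokine genes shown lie right of the line, from 1.40 for Ms4a7 in contig-bearing to 10.8 for Ccl2 in contig-free cells, while T cell genes lie near or left of it and the intervals of Vsir cross it.

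Depth differed between the libraries here, and the ratios depend in part on the depth of the cells. Contig-bearing C1q cells held a median of 8989 UMIs in WT and 6545.5 in VISTA-KO. From 8000 to 16000 UMIs the macrophage list summed to 2118 and 5865 CPM in WT and VISTA-KO, with medians per cell of 1455 and 2783 CPM. From 4000 to 8000 UMIs the sums were 3826 and 6198 CPM, but the median cell stood at 4030 and 3557 CPM in WT and VISTA-KO. In that class the higher VISTA-KO sum rested on its upper cells, of which 1 gave 23.5% of the UMIs. For MHC class II both sums and medians were higher in VISTA-KO in both classes, at medians of 1033 and 2678 CPM and of 1305 and 1781 CPM. In contig-free cells of 8000 to 16000 UMIs the macrophage list summed to 3182 and 6689 CPM, or 2609 and 4193 CPM without the top cell of each. The part of depth in the genotype ratios was not tested further.

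In the Cd3e-negative cells the macrophage genes were not higher in VISTA-KO at the median. Over their 15 macrophage genes the median log2 ratio was -0.60, with 0 at least 2-fold higher and 2 lower. Of all 4362 genes, 47.7% were past 2-fold there, 28.6% higher and 19.1% lower, and the groups were 6 and 4 cells. The balance turned with the mean over cells, at 1336 higher and 1526 lower, and with a minimum of 200 CPM, at 154 higher and 178 lower. Lyz2 was at 3693 and 3715 CPM (1.01, 0.790 to 1.29), and Csf1r at 517 and 399 CPM (0.772, 0.381 to 1.62). The lower genes were Cd14, at 2105 and 503 CPM (0.239, 0.147 to 0.380), and Apoe, at 1920 and 955 CPM (0.497, 0.334 to 0.741). The genes at the ends of the range were at 0 UMIs in the other library, so they have no fold: Mgl2 had 43 UMIs and Clec10a 21, each in 1 VISTA-KO cell, Mmp12 had 31 in 1 cell and Il1rn 35 in 3 cells. At the other end Thbs1 had 40 UMIs and Ier3 27, each in 1 WT cell, and Ddit4 had 26 in 3 cells. Each of these was decided by 1 to 3 cells.

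Vsir itself is the gene deleted in T cells, and it lies at chr10:60346851-60430294. Its level in the C1q cells did not separate the libraries. In contig-free cells it was at 107 and 146 CPM in WT and VISTA-KO (1.36, 0.913 to 1.99), and in contig-bearing cells at 93.7 and 117 CPM (1.25, 0.814 to 1.93). Reference T cells held 117 and 115 CPM, so the summed gene count does not show the deletion in this library either. In Cd3e-negative cells Vsir gave 6 UMIs in WT and 7 in VISTA-KO. Reads from exons outside a floxed segment can still be counted, so this level checks neither the labels nor the deletion.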

How the data were processed

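Droplet libraries of gene expression and T cell receptors from sorted tumor-infiltrating cells were analysed, 1 of each per genotype. Cell Ranger 5.0.0 (mm10, GRCm38) was used by the authors, who deposited filtered UMI counts for 32285 genes, and contig tables in which TRB contigs are listed by barcode with their own counts. The labels name a 3′ kit with surface protein barcodes and the methods a 5′ V(D)J kit; the tables held gene expression alone. Cells were kept as in the methods (600 genes, under 30% mitochondrial UMIs), and no doublet caller was run. UMIs were summed per library and subset and scaled to CPM. Ratios were taken as log2 after adding 10 CPM, over genes with 50 CPM in either group, and called past 2-fold. Ratios and shares carry exact intervals (conditional binomial, Clopper-Pearson, Poisson) at 95%, for counting error only. Shares of cells with a UMI were also computed after thinning each cell to 2000 UMIs, which left out 1 of the 47 WT contig-bearing cells. A clonotype was the V gene and junction of the TRB contig with most UMIs. Scripts were tested on simulated data. Named genes were the members of 24 lists, the extremes of the ratio in Cd3e-negative cells (at least 100 CPM), the 20 highest of those 10-fold above reference T cells, and the genes higher in contig-bearing cells. The 20 genes ranked over both Cd3e-positive subsets were added after their values were seen. Single values of some list members, which are counted in the sums of their lists, are not reported here. The members, lists and rules were chosen with earlier results of these data known. Alternatives covered the C1q, Cd3e, Siglech, cell and CPM limits, the pseudocount, scaling and cells with 2 beta chains. Python 3.11.15, numpy 2.4.6, scipy 1.17.1, pandas 2.3.3 and matplotlib 3.10.9 were used.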

Additional observations from a re-analysis of the deposited data

Results flagged for a closer look

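The following genes went opposite ways between VISTA-KO and WT in 2 subsets, with counting intervals on opposite sides of no change. Values are the log2 ratio in 1 subset minus that in the other, and none of these differences was tested. Against Cd3e-negative cells, which were only 6 and 4, contig-bearing cells differed for Apoe by 2.26, Cd36 by 5.32, Ctsb by 1.12, Ctss by 1.42, Grn by 1.54, Lgmn by 2.00, Ly6c2 by 4.79 and Tyrobp by 1.74. These were relatively higher in VISTA-KO contig-bearing cells, and Cxcl10, a chemokine of the interferon response, differed by -6.87, where Cd3e-negative cells had 1 UMI in WT and 57 in VISTA-KO, all 57 from 1 cell. Contig-free cells differed from Cd3e-negative cells the same way for Apoe by 1.59, Bst2 by 2.29, Cd14 by 3.19, Cd36 by 5.96, Ctsb by 2.07, Ctss by 2.12, Grn by 1.80, Irf7 by 4.94, Lgmn by 2.21, Ly6c2 by 4.71, Plac8 by 2.81 and Tyrobp by 1.98. In WT Cd3e-negative cells 1 cell gave 99.1% of the Ly6c2, 96.6% of the Plac8 and 100% of the Cd14 UMIs, and in VISTA-KO 76.9%, 100% and 93.1%. Irf7 rested on 26 UMIs in WT and 3 in VISTA-KO Cd3e-negative cells. The Cd36 values rested on 4 UMIs in WT and 0 in VISTA-KO Cd3e-negative cells. Between contig-bearing and contig-free cells, Ccl4 differed by 1.93, Cxcl10 by -3.69, Ifit1 by -2.65 and Spp1 by -3.54. Of Cxcl10 UMIs, 63.6% in WT contig-bearing and 56.2% in VISTA-KO contig-free cells came from 1 cell. Of Spp1 UMIs, 66.7% in WT contig-bearing and 53.5% in VISTA-KO contig-free cells did.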

How the results depend on the processing

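Of 120 alternative values, 89 stayed in the range set for them, 29 moved and 2 reversed. The share of C1q cells was 1.64% in WT and 1.05% in VISTA-KO with a minimum of 3 C1q UMIs, and 0.753% and 0.503% with 10; at 500 CPM VISTA-KO moved to 1.13%. With 10 C1q UMIs all 18 WT cells with a clonotype kind were in CD8 clonotypes (100%). The 2082 genes past 2-fold in Cd3e-negative cells became 3370 of 6524 at 20 CPM and 332 of 990 at 200 CPM (154 higher, 178 lower), were 2862 of 4398 as a mean over cells (1336 higher, 1526 lower), and were 166 in contig-bearing and 270 in contig-free cells. The median macrophage log2 ratio of -0.60 became -0.43 with a pseudocount of 50 CPM, -0.94 with any of 6 T cell genes as positive and -0.15 as a mean over cells, and reversed to 0.88 in contig-bearing and 1.26 in contig-free cells; the cause was not tested. The macrophage list of contig-bearing cells as a percent of Cd3e-negative cells moved in WT from 10.6% to 8.53% with 3 and 14.3% with 10 C1q UMIs, 12.3% without cells of 2 beta chains and 18.3% as a mean over cells, and in VISTA-KO from 34.1% to 22.9%, 44.9%, 38.6% and, with 6 T cell genes, 46.4%. Contig-free cells gave 13.4% and 46.3%. The T cell list as a percent of reference T cells moved in WT from 82.8% to 76.5% without cells of 2 beta chains and 79.7% without its most abundant gene, and in VISTA-KO from 88.3% to 92.8% with 3 and 79.1% with 10 C1q UMIs; contig-free cells gave 91.5% and 69.4%. The 2 subset alternatives, the limit on the mean CPM, the genotype ratios per C1q UMI and the depth range of 4000 to 16000 UMIs were chosen after seeing the data. No paired analysis was possible because each genotype had 1 library, and for the same reason no replicate could be left out. Cd3e-negative cells held 27077 and 57605 UMIs in all, so that genes under about 100 CPM rest on few UMIs there.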
